A study of Mus musculus with 9 samples.

Results

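The mitosis and G2/M genes described here are 41 mouse genes that dividing cells use from the end of DNA replication to cytokinesis. They were taken by symbol from a written list whose rule uses no measured value, although the list was drawn up with earlier results of these data known, and all 41 were found among the 25500 entries of the deposited table. The RNA came from splenic regulatory T cells (Tregs) sorted as GFP+ cells from KO and WT mice on a C57BL/6 background, age and sex matched at 8 to 12 weeks. KO mice carried *Foxp3* eGFP-Cre-ERT2 with *Hsp90b1* fl/fl, and WT mice carried the same Cre allele with *Hsp90b1* WT/WT. Both genotypes received tamoxifen, and the Cre is driven by *Foxp3*, so that *Hsp90b1*, which encodes the ER chaperone gp96, is deleted in cells that express *Foxp3*. The labels give 5 KO libraries and 4 WT libraries. The labels number the libraries and do not say which mouse each came from, so p-values measure the spread between these libraries.

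The unit is FPKM, a count of sequenced fragments divided by the length of the gene and by the depth of the library. *Hsp90b1* measured 2.13, 2.73, 3.11, 3.09 and 1.77 FPKM in KO 1 to KO 5, against 62.9, 50.7, 44.4 and 51.5 FPKM in WT 1 to WT 4, so that every library matched its label. *Foxp3*, the factor that defines Tregs, lay between 102 and 110 FPKM in 7 libraries and at 55.0 in KO 1 and 83.0 in WT 1. Those 2 libraries also held less *Malat1*, a nuclear noncoding RNA, with 30.6 FPKM in KO 1 and 24.9 in WT 1 against 182 to 374 in the other 7. Reads recovered from the FPKM summed to 12068195 to 14707792 in KO 2 to KO 5, to 24522263 in KO 1 and to 13889346 to 16666471 in the WT libraries. The study compared 4 mice per genotype and tabulates KO 2 to KO 5, so these were compared with WT 1 to WT 4, and KO 1 is given beside them. Leaving out WT 1 changes many calls, and values without it are given where they differ.

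A cell that enters mitosis condenses its chromosomes, attaches them to a spindle through kinetochores, holds anaphase back until every chromosome is attached, and then divides. The kinase CDK1 with cyclins A and B starts the process, and the anaphase-promoting complex ends it by having the cyclins and securin degraded. Most genes of this program are silent in resting cells and transcribed together late in the cycle, under MYBL2, FOXM1 and the MuvB proteins. In resting cells the same MuvB core sits in the repressive DREAM complex. MuvB binds a short promoter element called the CHR, and the factor NF-Y binds CCAAT boxes that often lie near it. In a bulk library, fewer dividing cells and less of these transcripts per dividing cell cannot be told apart.

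Promoters of 6 of the genes are shown because they hold both elements and belong to the members with the highest FPKM. They are the 250 bases before the RefSeq start on GRCm38.p6, read 5′ to 3′ on the strand of the gene. Capitals mark the CHR, searched as TTTGAA or TTTAAA, and the CCAAT box, both on either strand, so that a CHR or box on the other strand reads TTCAAA or ATTGG. No capital stretch overlaps another. *Cenpa* lies at chr5:30666636-30666885 on the plus strand, *Mki67* at chr7:135716380-135716629 and *Top2a* at chr11:99024190-99024439, both on the minus strand. *Ccnb2* lies at chr9:70421555-70421804 on the minus strand, *Smc2* at chr4:52438971-52439220 on the plus strand and *Cdc20* at chr4:118437344-118437593 on the minus strand.
Cenpa: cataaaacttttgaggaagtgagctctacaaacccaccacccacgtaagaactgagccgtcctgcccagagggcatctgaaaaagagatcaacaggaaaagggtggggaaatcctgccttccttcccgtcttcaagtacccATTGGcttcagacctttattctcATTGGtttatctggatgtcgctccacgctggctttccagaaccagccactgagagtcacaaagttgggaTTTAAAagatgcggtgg
Mki67: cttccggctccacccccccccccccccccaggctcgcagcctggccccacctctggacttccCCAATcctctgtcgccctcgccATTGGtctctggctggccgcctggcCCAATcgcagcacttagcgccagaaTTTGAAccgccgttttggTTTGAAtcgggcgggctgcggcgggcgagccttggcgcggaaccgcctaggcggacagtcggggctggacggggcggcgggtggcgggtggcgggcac
Top2a: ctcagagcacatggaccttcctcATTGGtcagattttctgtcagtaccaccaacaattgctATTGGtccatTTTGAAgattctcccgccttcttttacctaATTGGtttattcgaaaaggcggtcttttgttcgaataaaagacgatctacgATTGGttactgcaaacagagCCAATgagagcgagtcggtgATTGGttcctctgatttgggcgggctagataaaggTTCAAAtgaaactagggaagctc
Ccnb2: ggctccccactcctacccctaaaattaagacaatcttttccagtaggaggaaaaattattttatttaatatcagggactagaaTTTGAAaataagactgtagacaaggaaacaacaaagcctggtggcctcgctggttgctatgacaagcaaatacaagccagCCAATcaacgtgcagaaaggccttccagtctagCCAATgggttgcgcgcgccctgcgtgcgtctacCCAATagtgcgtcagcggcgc
Smc2: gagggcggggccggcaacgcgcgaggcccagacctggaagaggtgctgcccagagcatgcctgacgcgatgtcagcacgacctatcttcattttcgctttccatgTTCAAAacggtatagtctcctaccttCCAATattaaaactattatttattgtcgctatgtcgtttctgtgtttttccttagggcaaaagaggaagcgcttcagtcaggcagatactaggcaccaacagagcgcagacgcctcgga
Cdc20: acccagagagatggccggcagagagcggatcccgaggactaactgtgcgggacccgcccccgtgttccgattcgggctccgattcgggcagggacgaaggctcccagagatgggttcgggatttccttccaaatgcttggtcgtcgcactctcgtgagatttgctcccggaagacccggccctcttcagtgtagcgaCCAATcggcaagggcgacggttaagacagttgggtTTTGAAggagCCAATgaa

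In *Cenpa* the CHR begins 17 bases before the start, and in *Cdc20* it begins 18 bases before the start with a CCAAT box beside it. A CHR was found in 18 of 35 promoters of 33 matched members (51.4%), against 25.2% of 32851 promoters of all genes. A CCAAT box was found in 77.1% of the members' promoters, against 33.8% of all, and both in 45.7%, against 8.78% of all. These matches are letters in a window and not measured binding.

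The levels of the 41 genes were low in most cases. Over the 9 libraries, 4 members averaged over 10 FPKM, 33 between 1 and 10, and 4 at 1 or less. *Smc4*, an ATPase subunit that both condensin complexes hold together with SMC2, stood far above the rest, between 89.3 and 186 FPKM. *Incenp*, *Mki67* and *Cenpa* were the other members over 10. *Ttk*, *Cenpf*, *Nuf2* and *Anln* did not pass the filter of more than 1 FPKM in at least 4 of the 8 libraries compared, which left 37 members tested.

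**Figure D1:**
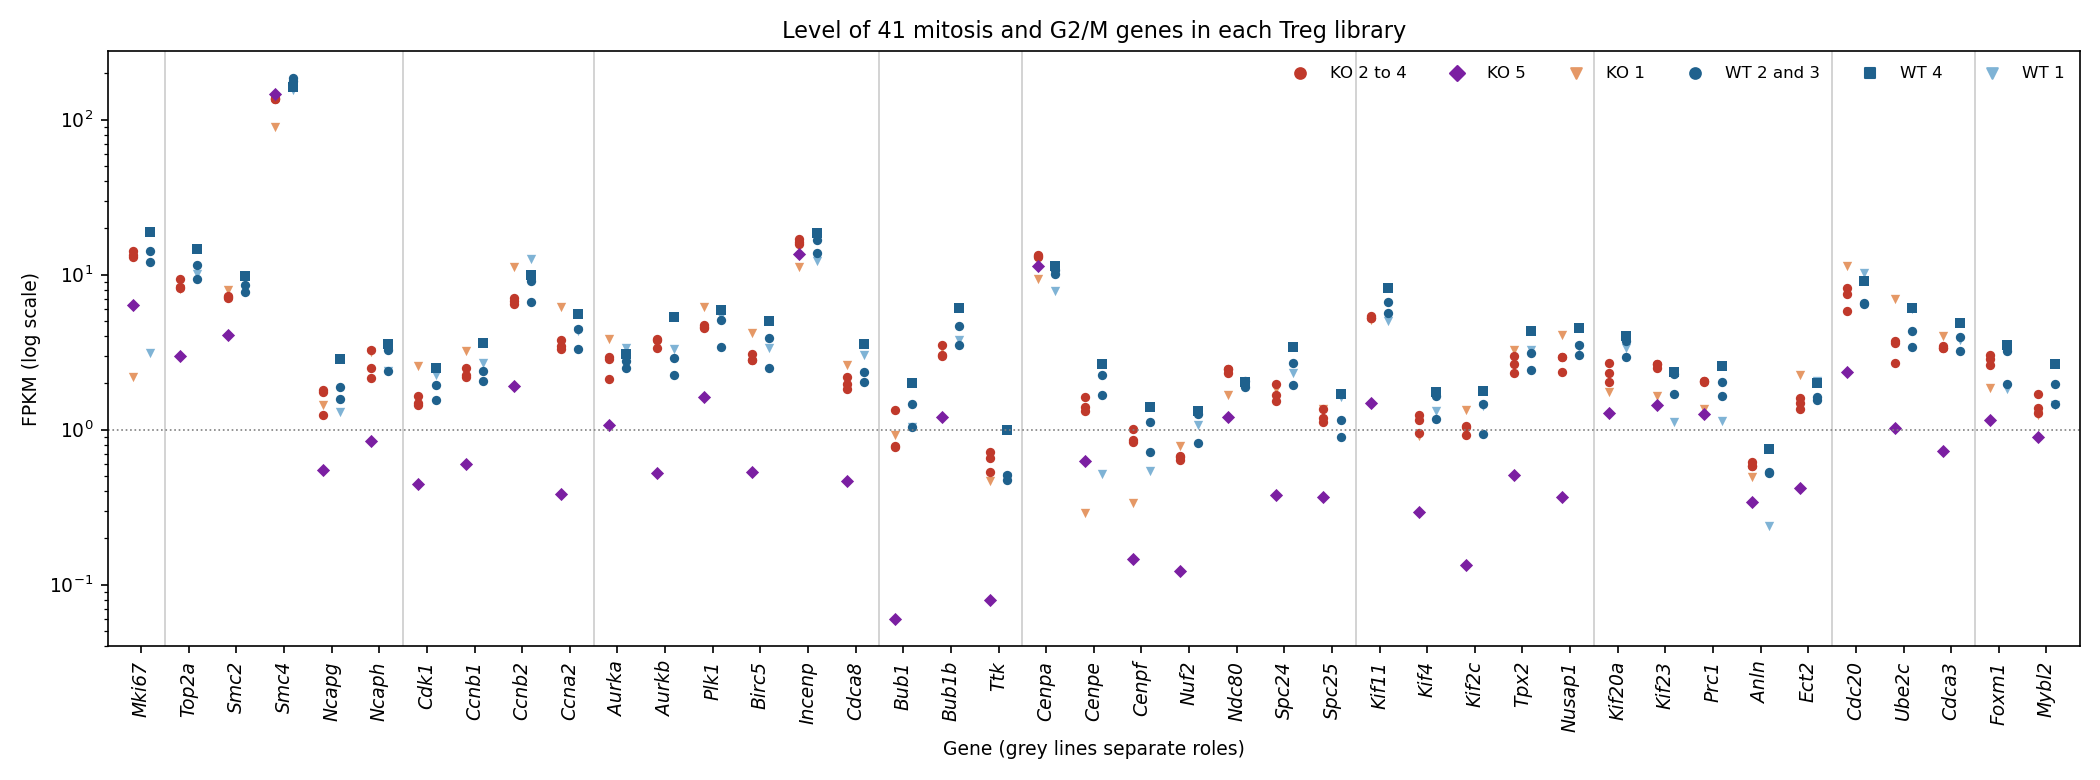
FPKM on a log scale of the 41 genes in the 9 libraries, 1 point per library, with the KO libraries left of the WT libraries for each gene, grey lines between roles and a dotted line at 1 FPKM. KO 5 (purple diamond) lies below KO 2 to KO 4 for 40 of the 41 genes, and WT 4 (dark square) above WT 2 and WT 3 for 39.

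Between the genotypes, no member passed the test. Of the 37 tested, 0 were called higher and 0 lower in KO 2 to KO 5 than in WT 1 to WT 4 (limma, Benjamini-Hochberg adjusted p under 0.05). Over all 12237 genes tested, 6.58% were called higher and 6.68% lower. At an unadjusted p under 0.05 there were 7 members, 6 lower and 1 higher, against 31.2% of all genes in either direction. limma-voom on recovered reads also called 0, with 10 of 38 at an unadjusted p under 0.05. The fold changes nevertheless lay mostly on the lower side: 31 of 37 were below 0, with a median log2 fold change of −0.41, against 49.4% of all genes and a median of 0.01.

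The median was nearer to 0 without KO 5. It was then −0.21 over the 37 members, with 29 of 37 fold changes below 0, against 49.9% of all genes. Without KO 1 and WT 1, which stood apart over all genes, and KO 5, it was −0.24, against 0.01 over all genes, with 32 of 37 below 0 (47.6% of all genes). In that comparison *Smc4* and *Kif20a* fell and *Cenpa* rose, against 18.4% of all genes called lower and 20.1% higher. The same 3 members were called when WT 1 alone was left out (2 lower and 1 higher, against 17.1% and 19.5% of all genes), and when all 9 libraries were used with a term for WT 1 and KO 1 (17% of all genes lower and 19.3% higher). With all 9 libraries *Kif20a* alone was called, lower in KO (3.55% of all genes were called lower and 3.21% higher).

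**Figure D2:**
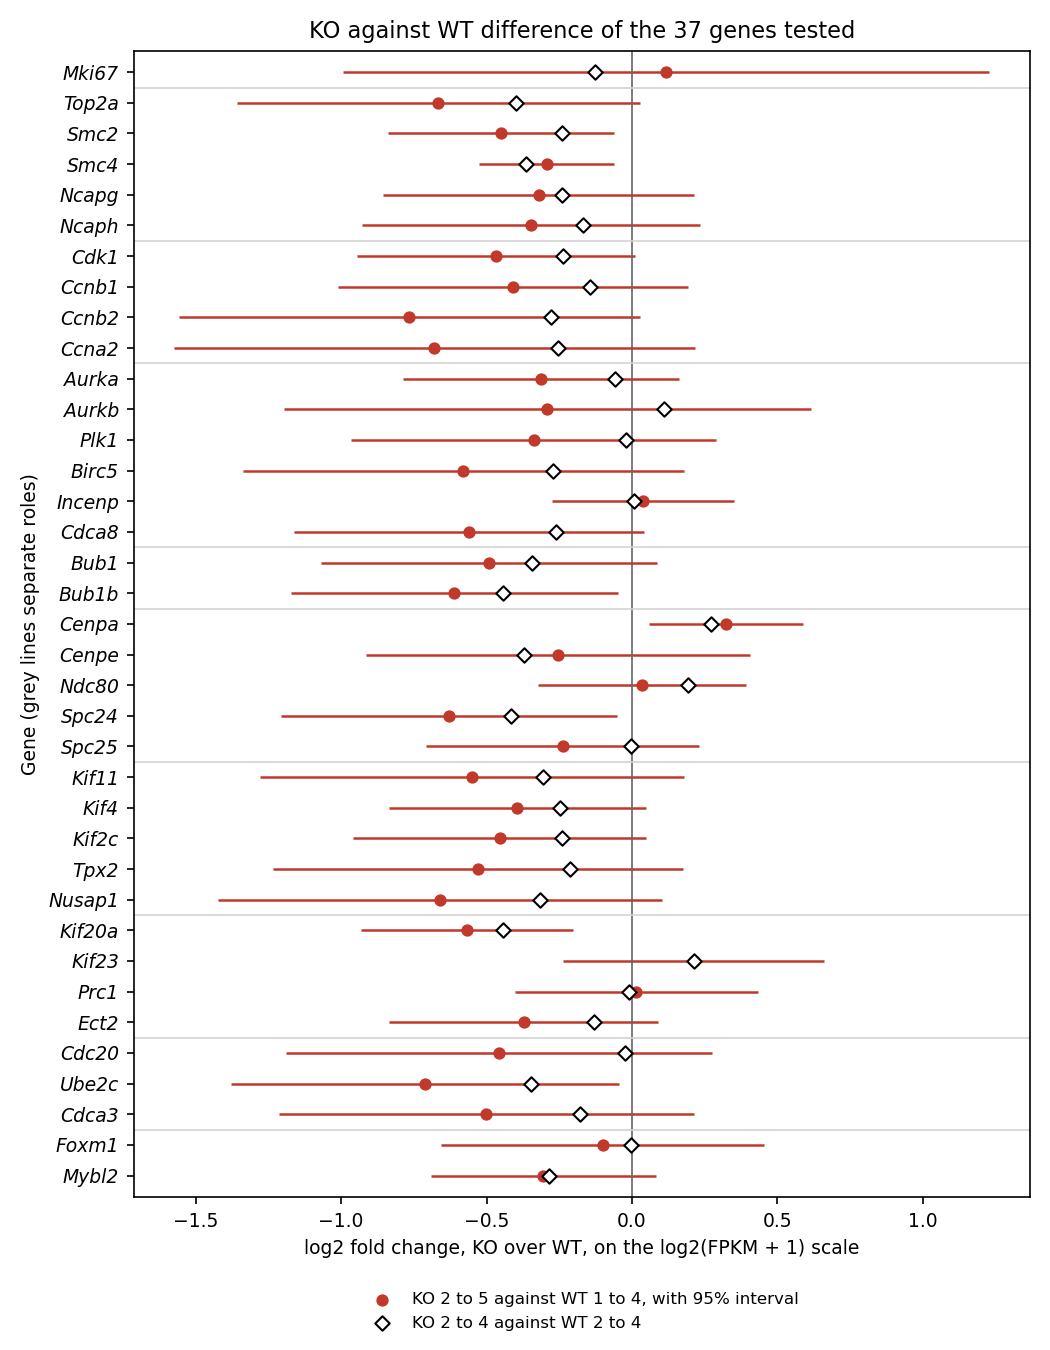
log2 fold change of KO over WT on the log2(FPKM + 1) scale for the 37 genes tested, by role, with KO 2 to 5 against WT 1 to 4 as red points with the 95% interval from limma, and KO 2 to 4 against WT 2 to 4 as open diamonds. The diamonds lie nearer to 0 than the points for most genes, with a median of −0.24 against −0.41.

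Few members had groups that did not overlap. *Smc2*, *Smc4*, *Nuf2*, *Nusap1* and *Kif20a* were lower in each of KO 2 to KO 5 than in each WT library, 4 of them among the 37 tested, against 17.2% of all genes. No member was higher in every KO library, against 15.9% of all genes.

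The member nearest to the threshold was *Kif20a*, a kinesin of the central spindle that carries the chromosomal passenger complex to the cleavage site. It measured 2.31, 2.02, 2.68 and 1.28 FPKM in KO 2 to KO 5 and 1.74 in KO 1, against 3.37, 2.94, 3.70 and 4.00 FPKM in WT 1 to WT 4. Every KO library lay below every WT library, KO 1 included. The log2 fold change was −0.57 ± 0.16 (SE, adjusted p = 0.0512 in limma), and the adjusted p was 0.0334 without WT 1 and 0.0488 over all 9 libraries. Exons of *Kif20a* overlap those of *Cdc23* on the other strand.

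Among the other genes of the central spindle and cytokinesis, *Kif23*, the kinesin of the centralspindlin complex, measured 2.50, 2.65, 2.63 and 1.44 FPKM in KO 2 to KO 5 and 1.64 in KO 1, against 1.11, 1.70, 2.30 and 2.34 FPKM in WT 1 to WT 4. All of KO 2 to KO 4 lay above the WT libraries and KO 5 between them, and the log2 fold change was 0.21 with an interval from −0.24 to 0.66. *Prc1*, which bundles the antiparallel microtubules of the central spindle, had a log2 fold change of 0.02 (interval −0.40 to 0.43). *Ect2*, the exchange factor that activates RhoA at the cleavage furrow, had −0.37 (interval −0.83 to 0.09). The furrow scaffold *Anln* lay between 0.343 and 0.619 FPKM in KO 2 to KO 5 and between 0.237 and 0.746 in the WT libraries.

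*Mki67*, whose protein coats mitotic chromosomes and marks cycling cells, measured 13.0, 13.3, 14.1 and 6.39 FPKM in KO 2 to KO 5 and 2.17 in KO 1, against 3.10, 12.02, 14.3 and 18.9 FPKM in WT 1 to WT 4. The groups overlapped fully, and the lowest library was KO 1, followed by WT 1. The mean was 11.7 ± 3.58 FPKM in KO 2 to KO 5 and 12.1 ± 6.63 in WT (SD, n = 4 each), with a log2 fold change of 0.12 (interval −0.99 to 1.23). The sign turned to −0.37 without WT 1 and to −0.13 without WT 1, KO 1 and KO 5, and *Mki67* passed the test in none of these comparisons.

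The genes of chromosome condensation all had fold changes below 0. *Smc4* measured 136, 135, 138 and 147 FPKM in KO 2 to KO 5 and 89.3 in KO 1, against 155, 186, 179 and 163 FPKM in WT 1 to WT 4. No KO library reached the lowest WT library. The log2 fold change was −0.29 ± 0.10 (SE, adjusted p = 0.0949 in limma), and −0.34 without WT 1, where the adjusted p was 0.00304. *Smc2*, its partner ATPase, had a log2 fold change of −0.45 (adjusted p = 0.117 in limma), with 4.11 to 7.26 FPKM in KO 2 to KO 5, 7.99 in KO 1 and 7.75 to 9.81 in the WT libraries.

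*Top2a*, the topoisomerase that untangles sister chromatids, measured 8.30, 8.19, 9.36 and 3.00 FPKM in KO 2 to KO 5 and 8.02 in KO 1, against 10.1, 9.31, 11.5 and 14.7 FPKM in WT 1 to WT 4. Of the KO libraries, KO 4 alone reached the lowest WT library. Its log2 fold change was −0.67 (interval −1.36 to 0.03), and −0.40 without WT 1, KO 1 and KO 5. The condensin I subunits *Ncapg* and *Ncaph* had −0.32 and −0.35, both with intervals that held 0.

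Of the genes that start mitosis, *Ccnb2*, a B-type cyclin, measured 6.79, 7.10, 6.46 and 1.91 FPKM in KO 2 to KO 5 and 11.2 in KO 1, against 12.6, 6.62, 9.06 and 9.99 FPKM in WT 1 to WT 4. Levels in KO 2 to KO 4 were close to WT 2, and KO 5 lay far below. *Ccna2*, the cyclin of S phase and mitotic entry, measured 3.46, 3.81, 3.30 and 0.381 FPKM in KO 2 to KO 5 and 6.19 in KO 1, against 4.36, 3.33, 4.46 and 5.59 FPKM in WT 1 to WT 4. In reads this was 24 in KO 5, against 185 to 262 in KO 2 to KO 4.

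For *Ccnb2* the log2 fold change was −0.77 and for *Ccna2* −0.68, with intervals of −1.56 to 0.03 and −1.57 to 0.22, and both came closer to 0 without WT 1, KO 1 and KO 5 (−0.28 and −0.25). *Cdk1*, the kinase these cyclins activate, and *Ccnb1* had −0.47 and −0.41. All 4 genes of this group were lower in KO 5 than in each of the other 8 libraries.

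Mitotic kinases and the chromosomal passenger complex, which corrects faulty spindle attachments, did not pass the test. *Plk1*, the polo-like kinase of mitotic entry and exit, measured 4.51, 4.57, 4.77 and 1.62 FPKM in KO 2 to KO 5 and 6.20 in KO 1, against 5.42, 3.41, 5.08 and 5.88 FPKM in WT 1 to WT 4. KO 2 to KO 4 lay inside the WT range. Its log2 fold change was −0.34 (interval −0.97 to 0.29) and −0.02 without WT 1, KO 1 and KO 5.

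*Incenp*, the scaffold of the passenger complex, measured 16.3, 15.8, 16.9 and 13.5 FPKM in KO 2 to KO 5 and 11.2 in KO 1, against 12.2, 13.8, 16.8 and 18.6 FPKM in WT 1 to WT 4. All of KO 2 to KO 5 lay inside the WT range, and the log2 fold change was 0.04 (interval −0.28 to 0.35). The other subunits differed from it in KO 5. *Aurkb*, the kinase of the complex, had 0.528 FPKM there against 3.35 to 3.83 in KO 2 to KO 4, *Birc5* (survivin) 0.534 against 2.80 to 3.08, and *Cdca8* (borealin) 0.463 against 1.84 to 2.19. Their log2 fold changes were −0.29, −0.58 and −0.56, and that of *Aurka*, the spindle pole kinase, was −0.31, all with intervals that held 0. Without WT 1, KO 1 and KO 5 the sign of *Aurkb* turned, to 0.11. There *Birc5* had −0.27, *Cdca8* −0.26 and *Aurka* −0.06.

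The spindle checkpoint kinase *Bub1* measured 0.776, 0.778, 1.34 and 0.0596 FPKM in KO 2 to KO 5 and 0.917 in KO 1, against 1.03, 1.04, 1.46 and 2.00 FPKM in WT 1 to WT 4. It passed the filter on low values through 4 WT libraries and 1 KO library. In reads it had 4 in KO 5, against 50 to 80 in KO 2 to KO 4. *Bub1b*, which encodes BubR1 of the complex that holds the anaphase-promoting complex inactive, measured 3.51, 2.99, 3.01 and 1.21 FPKM in KO 2 to KO 5 and 3.34 in KO 1, against 3.79, 3.50, 4.67 and 6.10 FPKM in WT 1 to WT 4.

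The KO libraries thus lay at or below the lowest WT library in both genes, apart from KO 4 in *Bub1* and KO 2 in *Bub1b*. The log2 fold changes were −0.49 (interval −1.07 to 0.09) and −0.61 (interval −1.17 to −0.05, adjusted p = 0.135 in limma). *Ttk*, the checkpoint kinase MPS1, was below the filter, with 0.0791 FPKM in KO 5, 0.533 to 0.713 in KO 2 to KO 4 and 0.471 to 0.988 in the WT libraries.

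Of the centromere and kinetochore genes, *Cenpa*, the histone H3 variant that marks centromeres, had the fold change highest above 0 among the 37 members. It measured 12.9, 13.4, 13.2 and 11.4 FPKM in KO 2 to KO 5 and 9.33 in KO 1, against 7.89, 10.2, 10.7 and 11.4 FPKM in WT 1 to WT 4. KO 2 to KO 4 lay above all WT libraries, KO 5 level with WT 4, and KO 1 above WT 1 alone. The log2 fold change was 0.32 ± 0.11 (SE, adjusted p = 0.103 in limma), 0.22 without WT 1 (adjusted p = 0.0343) and 0.27 without WT 1, KO 1 and KO 5 (adjusted p = 0.00702). Over all 9 libraries *Cenpa* was not called.

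*Ndc80*, which binds microtubules at the outer kinetochore, measured 2.31, 2.45, 2.48 and 1.21 FPKM in KO 2 to KO 5 and 1.66 in KO 1, against 2.00, 1.89, 2.05 and 2.02 FPKM in WT 1 to WT 4. Relative to the narrow WT range, KO 2 to KO 4 lay above it and KO 5 and KO 1 below it. Its log2 fold change was 0.03 (interval −0.32 to 0.39). Its partners in the Ndc80 complex ran otherwise, with −0.63 for *Spc24* (interval −1.21 to −0.05, adjusted p = 0.135 in limma) and −0.24 for *Spc25*. *Nuf2*, below the filter, had 0.123 to 0.675 FPKM in KO 2 to KO 5, 0.789 in KO 1 and 0.818 to 1.31 in the WT libraries.

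The kinetochore motor *Cenpe* had a log2 fold change of −0.25 (interval −0.91 to 0.41). It was −0.52 without WT 1 (adjusted p = 0.0656 in limma). Without WT 1, KO 1 and KO 5 it was −0.37 (adjusted p = 0.0683 in limma). *Cenpf*, a large kinetochore and matrix protein below the filter, had 0.147 to 1.01 FPKM in KO 2 to KO 5 and 0.543 to 1.41 in the WT libraries.

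All 5 genes of spindle motors and microtubule binding had fold changes below 0 and none passed the test. *Kif11*, the Eg5 motor that pushes the spindle poles apart, measured 5.24, 5.23, 5.41 and 1.48 FPKM in KO 2 to KO 5 and 5.11 in KO 1, against 5.00, 5.64, 6.69 and 8.24 FPKM in WT 1 to WT 4. *Nusap1*, which stabilizes spindle microtubules near chromosomes, measured 2.35, 2.93, 2.92 and 0.367 FPKM in KO 2 to KO 5 and 4.07 in KO 1, against 3.41, 3.01, 3.51 and 4.50 FPKM in WT 1 to WT 4. For *Nusap1*, but not for *Kif11*, KO 2 to KO 5 stayed below every WT library, and KO 1 lay among the WT libraries for both.

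Their log2 fold changes were −0.55 (interval −1.28 to 0.18) and −0.66 (interval −1.42 to 0.10), and −0.31 and −0.32 without WT 1, KO 1 and KO 5. *Tpx2*, the activator of Aurora A on the spindle, had −0.53, the chromokinesin *Kif4* −0.39 and the microtubule-depolymerizing kinesin *Kif2c* −0.45.

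The genes of the anaphase-promoting complex and mitotic exit had fold changes below 0 as well. *Cdc20*, its activator at anaphase, measured 7.52, 5.85, 8.26 and 2.36 FPKM in KO 2 to KO 5 and 11.4 in KO 1, against 10.3, 6.47, 6.60 and 9.05 FPKM in WT 1 to WT 4. *Ube2c*, its ubiquitin-conjugating enzyme, measured 2.70, 3.73, 3.61 and 1.02 FPKM in KO 2 to KO 5 and 7.01 in KO 1, against 6.04, 3.43, 4.30 and 6.09 FPKM in WT 1 to WT 4. Both genes were highest or near highest in KO 1 and WT 1, and KO 5 was lowest.

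The log2 fold change of *Cdc20* was −0.46 (interval −1.19 to 0.27) and −0.03 without WT 1, KO 1 and KO 5. That of *Ube2c* was −0.71 (interval −1.38 to −0.04, adjusted p = 0.142 in limma) and −0.35 without these libraries. *Cdca3*, a trigger of mitotic entry, had −0.50 (interval −1.21 to 0.21).

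The transcription factors of the program did not pass the test. *Foxm1* measured 2.85, 2.61, 3.01 and 1.16 FPKM in KO 2 to KO 5 and 1.86 in KO 1, against 1.84, 1.96, 3.21 and 3.49 FPKM in WT 1 to WT 4. *Mybl2*, which joins MuvB in dividing cells, measured 1.28, 1.37, 1.70 and 0.896 FPKM in KO 2 to KO 5 and 1.25 in KO 1, against 1.43, 1.46, 1.95 and 2.64 FPKM in WT 1 to WT 4. KO 2 to KO 4 lay inside the WT range for *Foxm1*, and for *Mybl2* KO 4 alone did. The log2 fold changes were −0.10 (interval −0.66 to 0.46) and −0.30 (interval −0.69 to 0.08).

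Within the KO group, KO 5 stood apart from the other libraries for these genes. KO 5 was below each of KO 2 to KO 4 in 40 of the 41 genes, the exception being *Smc4*. Among the 37 tested it was below in 36, against 32.7% of all genes tested. It was the lowest of all 9 libraries in 33 of 41, 30 of them among the 37 tested, against 12.7% of all genes. It was under 0.5 times the mean of KO 2 to KO 4 in 31 of 41, 28 of them among the 37 tested, against 3.45% of all genes.

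The median member stood in KO 5 at 30.6% of the mean of KO 2 to KO 4, against 100.4% for all genes. The lowest was *Bub1* with 6.18%, followed by *Ccna2* with 10.8%, *Ttk* with 12.5%, *Kif2c* with 13.3% and *Nusap1* with 13.4%. The highest were *Smc4* with 107.8%, *Cenpa* with 86.5% and *Incenp* with 82.6%, which are 3 of the 4 members over 10 FPKM. The remaining member over 10 FPKM, *Mki67*, stood at 47.4%.

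By role, the median was lowest for the spindle checkpoint (12.5%) and for spindle motors and microtubule binding (19.3%), and highest for the transcription factors (51.4%) and for the central spindle and cytokinesis (55.3%). Without *Smc4*, the FPKM of the other 40 genes summed to 65.2 in KO 5, against 142, 143 and 153 in KO 2 to KO 4 and 146 in KO 1. The WT libraries summed to 146, 134, 166 and 204. Outside KO 5, this sum lay inside the WT range in the KO libraries. With *Smc4* included it did not: the 41 genes summed to 235, 278, 279, 291 and 212 FPKM in KO 1 to KO 5, against 301, 321, 344 and 367 in WT 1 to WT 4, so that every KO library lay below every WT library.

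**Figure D3:**
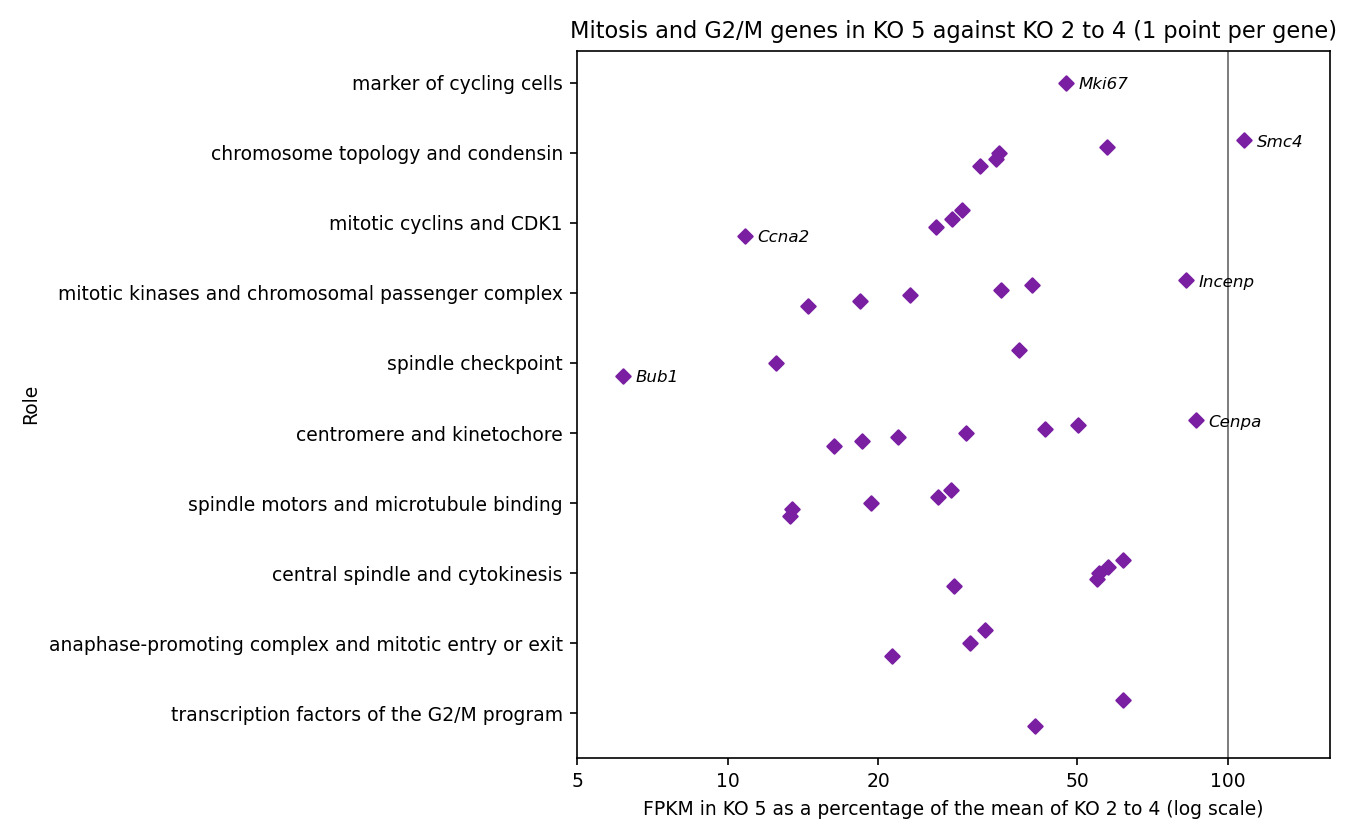
FPKM of each of the 41 genes in KO 5 as a percentage of the mean of KO 2 to KO 4, on a log scale, by role, 1 point per gene, with a line at 100. All points but *Smc4* (107.8%) lie left of the line, and *Bub1* (6.18%) lies farthest left.

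KO 5 is a KO library by its label and by its *Hsp90b1* level of 1.77 FPKM, and its recovered reads (14021063) and detected genes (20454) lay inside the range of KO 2 to KO 4. KO 2 to KO 4 were close to each other for the 41 genes, with a median coefficient of variation of 7.50% (5.22% over all genes). WT 2 to WT 4 varied more, with 23.2% (6.82% over all genes). Among the WT libraries, WT 4 was above WT 2 and WT 3 in 39 of 41 members, 35 of them among the 37 tested, against 36.8% of all genes.

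Markers of some cell types other than Tregs were low in KO 5 as well, and the summed FPKM of others was not. The summed FPKM of 8 plasma cell markers was 31.3 in KO 5, against 90.3 to 96.3 in KO 2 to KO 4 and 92.2 in KO 1, and it was 91.6 to 437 in the WT libraries, highest in WT 4. Of these, *Igha* measured 0.121 FPKM in KO 5, 40.3 to 47.2 in KO 2 to KO 4 and 294 in WT 4, and *Jchain* 0.103, 10.3 to 11.4 and 86.5. These genes carried most of the difference, and the other 6 markers summed to 31.1 in KO 5 and 37.9 to 40.4 in KO 2 to KO 4. Of the 6 plasma cell markers tested between the genotypes, 2 fell and 1 rose, against 6.68% of all genes called lower and 6.58% higher. The gene that rose was *Prdm1*, a repressor that Tregs also express. Those that fell were *Ighg1*, which passed the filter through the WT libraries alone, and *Mzb1*, which passed through these and KO 3. Nothing is drawn from these 2 calls. The sum of 12 myeloid and dendritic cell markers was 3.47 in KO 5, 8.74 to 10.2 in KO 2 to KO 4, 18.6 in KO 1 and 12.3 to 37.8 in the WT libraries, with *Lyz2* at 0.148 FPKM in KO 5 and 4.06 to 5.31 in KO 2 to KO 4.

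Of the 8 plasma cell markers 3 were at 0 in KO 5 and 1 or 2 in each of KO 2 to KO 4, and of the 12 myeloid and dendritic cell markers 4 were at 0 in KO 5 and 0 to 2 in KO 2 to KO 4. The sum of 13 B cell markers was 39.5 in KO 5, 46.3 to 50.3 in KO 2 to KO 4, 84.3 in KO 1 and 84.9 to 120 in the WT libraries. Of these, *Ms4a1* was at 0 in KO 5 and near 0 in KO 2 to KO 4 as well (0.0470 to 0.0961 FPKM). Markers of neutrophils (8 genes) summed to 0.725 in KO 5, 1.87 to 3.85 in KO 2 to KO 4 and 0.767 to 7.36 in the WT libraries, highest in WT 4. Those of CD8 T and NK cells (10 genes) summed to 24.9 in KO 5, 27.1 to 32.2 in KO 2 to KO 4 and 39.0 to 57.1 in the WT libraries. Those of erythroid cells (10 genes) summed to 11.7 in KO 5, 12.8 to 13.2 in KO 2 to KO 4 and 8.22 to 18.2 in the WT libraries. Of these 10, 5 were at 0 in KO 5, 0 or 1 in each of KO 2 to KO 4 and 0 to 4 in the WT libraries. Their mean log2(FPKM + 1) was 0.482 in KO 5, 0.778 to 0.818 in KO 2 to KO 4 and 0.376 to 1.03 in the WT libraries. At 0 in KO 5 were also 4 B cell, 4 neutrophil and 2 CD8 T and NK markers, against at most 1, 2 and 0 in KO 2 to KO 4. Germinal center B cell markers (7 genes) were not low in KO 5 by their sum. It was 28.8, against 27.2 to 29.1 in KO 2 to KO 4 and 28.7 to 38.3 in the WT libraries. Their mean log2(FPKM + 1) was lower in KO 5 (1.36) than in KO 2 to KO 4 (1.45 to 1.46). In the WT libraries that mean was 1.54 to 1.69. Platelet and megakaryocyte markers (5 genes) were not low in KO 5. They summed to 1.46 there, 1.31 to 2.00 in KO 2 to KO 4 and 0.955 to 1.61 in the WT libraries. The sum of 9 T cell and Treg genes was 1517 in KO 5, against 1380 to 1406 in KO 2 to KO 4. It was 2116 in KO 1 and 1422 to 2181 in the WT libraries, so that KO 5 lay inside the WT range. The part of these other cells in the levels of the mitosis genes was not tested.

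Other cell cycle genes shared the low level in KO 5 in part. Of 76 tested genes on a list of other mitosis genes, 60 were below each of KO 2 to KO 4 (32.7% of all genes tested were), with a median of 71.0% of their mean, against 100.4% for all genes. Of 46 tested genes of DNA replication and S phase 35 were below, with a median of 81.1%. Of 27 tested genes of G1 cyclins, CDK inhibitors, RB and the DREAM complex 16 were below, with a median of 93.9%.

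**Figure D4:**
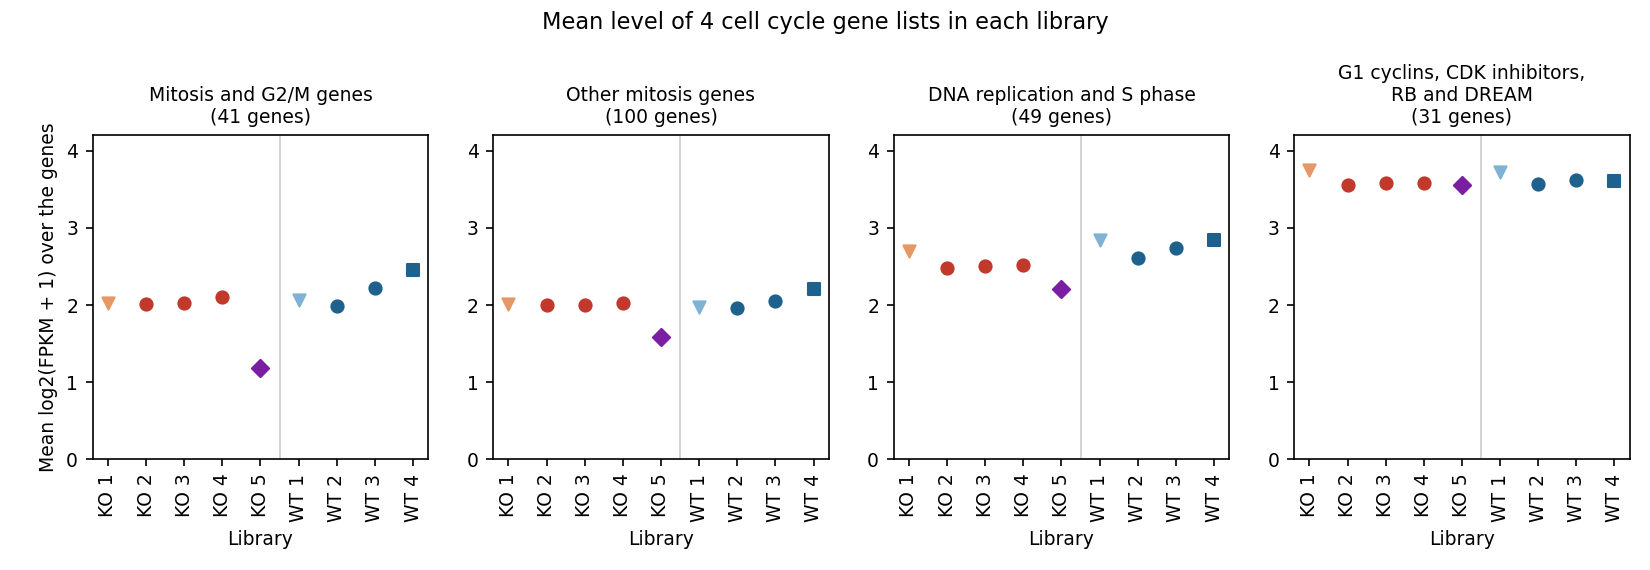
Mean log2(FPKM + 1) of 4 cell cycle gene lists in each library, with KO 1 to KO 5 left of WT 1 to WT 4. KO 5 (purple diamond) lies lowest in each panel, by the widest margin for the 41 mitosis and G2/M genes (1.18 against 2.01 to 2.10 in KO 2 to KO 4) and by the least for the G1 list (3.56 against 3.56 to 3.59).

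Calls on the other cell cycle lists are to be read against the 6.58% of all genes called higher and the 6.68% called lower in the same comparison, and the lists were not tested against each other. Of the 46 tested genes of DNA replication and S phase 13 fell and 1 rose (limma, adjusted p under 0.05), with a median log2 fold change of −0.36. The number that fell was 3 over all 9 libraries and 17 without WT 1, against 3.55% and 17.1% of all genes called lower there. It was 3 to 7 without any 1 of KO 2 to KO 4 or WT 2 to WT 4. *E2f1*, the transcription factor that drives genes of S phase entry, measured 1.31, 1.21, 0.923 and 0.370 FPKM in KO 2 to KO 5 and 1.40 in KO 1, against 3.25, 2.07, 3.36 and 2.82 FPKM in WT 1 to WT 4.

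All KO libraries lay below all WT libraries for *E2f1*, and it fell by 1.00 on the log2 scale (adjusted p = 0.0132 in limma). *Gins2*, a subunit of the replicative helicase, measured 0.554 to 0.835 FPKM in KO 2 to KO 5 and 1.34 to 1.84 in the WT libraries, so that it passed the filter through the WT libraries alone. It is included in the count of genes that fell, and nothing further is drawn from its call. *Cdt1*, which loads that helicase, rose, with a mean of 14.6 ± 0.615 FPKM in KO 2 to KO 5 and 10.5 ± 1.24 in WT (SD, n = 4 each, log2 fold change 0.44, adjusted p = 0.0162 in limma). No gene of this list was called higher, *Cdt1* included, without KO 2, KO 3, KO 4, WT 2 or WT 3.

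On the list of other mitosis genes, 2 of 76 rose and 4 fell, shares no larger than those over all genes, with a median log2 fold change of −0.16, and of −0.03 without KO 5. The number that fell was 7 without WT 1, where 17.1% of all genes were called lower. It was 1 or 2 over all 9 libraries (3.55% of all genes) and without KO 2, KO 3, KO 4, KO 5, WT 3 or WT 4. The phosphatase *Cdc25b*, which activates CDK1 at mitotic entry, measured 66.6, 66.0, 66.8 and 58.1 FPKM in KO 2 to KO 5 and 67.7 in KO 1, against 26.7, 23.1, 23.6 and 26.6 FPKM in WT 1 to WT 4. Every KO library, KO 5 included, stood well above every WT library. It rose by a log2 fold change of 1.33 ± 0.09 (SE, adjusted p = 0.000106 in limma), and by 1.41 without WT 1, KO 1 and KO 5.

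*Pttg1*, which encodes securin, the inhibitor of the protease that parts sister chromatids, measured 24.5, 22.4, 23.5 and 24.4 FPKM in KO 2 to KO 5 and 29.7 in KO 1, against 13.5, 13.2, 12.8 and 13.9 FPKM in WT 1 to WT 4. It rose by 0.78 on the log2 scale (adjusted p = 0.000274 in limma), again with KO 5 among the other KO libraries. The 41 members held no such gene: *Cenpa*, the member with the highest fold change, had 0.32.

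*Cks2*, a small subunit of cyclin-dependent kinases, fell to 8.94 ± 1.22 FPKM in KO 2 to KO 5, against 17.5 ± 3.86 in WT (SD, n = 4 each, log2 fold change −0.88, adjusted p = 0.0101 in limma). KO 1, at 17.9, lay among the WT libraries, of which WT 1 was highest at 22.2. Over all 9 libraries the adjusted p in limma was 0.144, and 0.00408 with a term for WT 1 and KO 1 (17% of all genes were called lower with it). *Melk*, a kinase of dividing cells, fell by 0.66 (adjusted p = 0.0231 in limma), and over all 9 libraries its adjusted p was 0.129, or 0.00682 with the term.

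Of the 27 tested genes of G1 and DREAM, 2 rose and 6 fell, against 6.58% of all genes called higher and 6.68% lower. The number that fell was 10 without WT 1, where 17.1% of all genes were called lower. It was 1 to 3 over all 9 libraries (3.55% of all genes) and without any of the other 7. *Cdkn1b*, which encodes the CDK inhibitor p27, rose to 105 ± 3.32 FPKM in KO 2 to KO 5, against 65.5 ± 2.55 in WT (SD, n = 4 each, log2 fold change 0.67, adjusted p = 0.00132 in limma), and KO 1 had 95.7. *Myc*, the growth-promoting transcription factor, fell to 26.5 ± 2.93 FPKM in KO 2 to KO 5, against 47.8 ± 8.18 in WT (log2 fold change −0.82, adjusted p = 0.00629 in limma), and KO 1 had 25.0. *Ccnd2*, a D-type cyclin, fell by 0.62 (adjusted p = 0.0206 in limma) and *Tfdp1*, the partner of E2F factors, by 0.51 (adjusted p = 0.0176). Their adjusted p over all 9 libraries was 0.198 and 0.144, and 8.22e-05 and 0.00771 with a term for WT 1 and KO 1. Unlike the mitosis genes, *Myc* was not low in KO 5, with 123% of the mean of KO 2 to KO 4.

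The 2 libraries that stood apart over all genes, KO 1 and WT 1, differed in the mitosis genes by gene length. The mean log2(FPKM + 1) over the 41 members was 2.03 in KO 1 and 2.06 in WT 1, against 2.01 to 2.10 in KO 2 to KO 4 and 1.99, 2.22 and 2.45 in WT 2 to WT 4. The 6 members over 8000 bases of exons had a median ratio of 0.519 in KO 1 to the mean of KO 2 to KO 4, and of 0.448 in WT 1 to the mean of WT 2 to WT 4. The 8 members under 3000 bases had 1.40 and 1.17. Ratios of the long members ran from 0.161 to 0.931 in KO 1 and from 0.206 to 0.849 in WT 1. Those of the short members ran from 0.968 to 2.09 and from 0.865 to 1.47.

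*Mki67*, of 10061 bases, stood at a ratio of 0.161 in KO 1 and 0.206 in WT 1, and *Cenpe*, of 8620 bases, at 0.199 and 0.235. *Top2a*, of 9013 bases, stood nearer to 1, at 0.931 and 0.849. *Ube2c*, of 2600 bases, stood at 2.09 and 1.31. Across the 41 genes, the log2 ratio correlated with log2 length at a Pearson r of −0.64 in KO 1 and −0.67 in WT 1 (Spearman −0.69 and −0.67). Over all 12152 genes tested with a length it was 0.12 and 0.18 (Spearman −0.09 and −0.04). These are correlations across genes of the same library, which are not independent replicates.

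**Figure D5:**
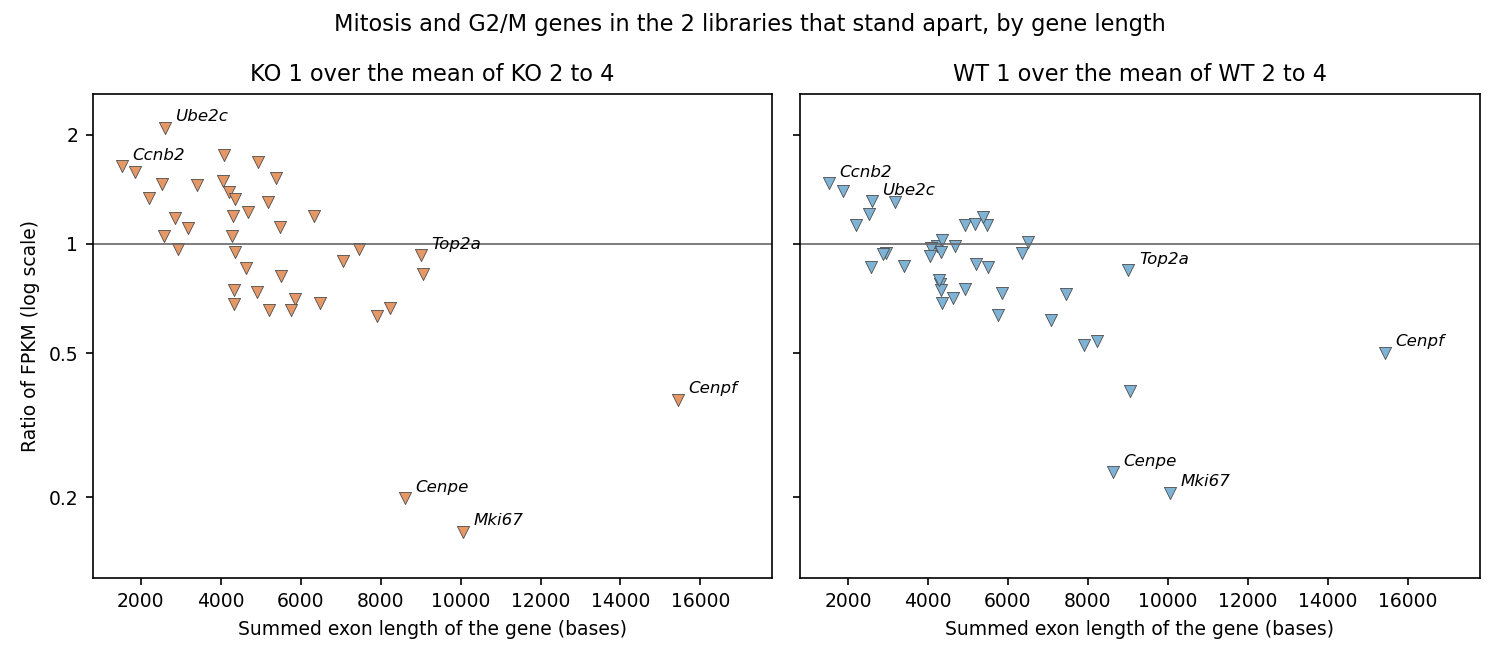
Ratio of FPKM on a log scale against summed exon length in bases for the 41 genes, in KO 1 over the mean of KO 2 to KO 4 (left) and in WT 1 over the mean of WT 2 to WT 4 (right). *Mki67*, a long gene, lies lowest (0.161 and 0.206), while *Top2a*, also long, lies nearer to the line at 1 (0.931 and 0.849). *Ube2c*, a short gene, lies above the line (2.09 and 1.31).

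Exons of 12 members overlap those of another gene, 10 on the other strand and 2 on the same strand, and no source used here states whether reads were counted by strand. Among the genes described, *Top2a* and *Foxm1* overlap a gene on the same strand, and *Ncapg*, *Ccna2*, *Plk1*, *Cdca8*, *Kif4*, *Nusap1*, *Prc1*, *Cdc20* and *Ube2c* overlap a gene on the other strand, as *Kif20a* does.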

How the data were processed

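RNA of sorted splenic Tregs was sequenced in 5 KO and 4 WT libraries. Per the submitters' processing notes, CASAVA and fastp made clean reads and the build was mm10. Not given in the sources used here are the annotation, the use of strand, and the tools for alignment and counting. The authors deposited FPKM, which they scaled across libraries. Reads per gene were recovered as FPKM times GENCODE M21 exon length and a constant per library, and 95.6% of 25500 entries were whole within 0.01 read in every library, 38 of the 41 members among them.

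KO 2 to KO 5 were compared with WT 1 to WT 4 on log2(FPKM + 1), a scale that understates the change of low genes, with limma-trend (limma 3.58.1 under R 4.3.3). The filter kept 12237 genes that exceeded 1 FPKM in 4 or more of these 8 libraries. A gene was called where its p, adjusted by Benjamini-Hochberg over all of these genes, was under 0.05. Intervals are 95% intervals from limma. Alternatives were all 9 libraries, with and without a term for WT 1 and KO 1, each library left out, WT 1, KO 1 and KO 5 left out, a replicate block, scaling by median ratios or by the upper quartile, a pseudocount of 0.1, no filter, a filter in all 8 libraries and limma-voom on recovered reads. On simulated data for this comparison, limma-trend found 93% of the genes given a log2 change of 1 and 100% of those given 2, and its false calls numbered 11 among 12061 genes in all. The changed genes were drawn from those with many reads, all libraries were given the same spread, and none stood apart as WT 1 does. The shares found therefore do not hold for members with few reads or a wide spread between libraries.

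Values in every library are given for members called with or without WT 1 and for the 2 members with the highest mean FPKM in each of 10 roles, and of each other cell cycle list the 4 genes with the smallest p are named, apart from 1 that is not reported here. Every cell type marker list is given by its summed FPKM. The members (by a rule that uses no measured value), lists and tests were chosen with earlier results of these data known. Promoters were taken from RefSeq (GRCm38.p6). No pair of libraries held identical values. Tables came from Python 3.11.15, numpy 2.4.6, pandas 2.3.3 and scipy 1.17.1, and figures with matplotlib 3.10.9.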

Additional observations from a re-analysis of the deposited data

Results flagged for a closer look

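In KO 2 to KO 5, KO 5 lay apart below the other 3 libraries for 7 of the 19 members described by library, with a gap to the nearest of them of 0.850 to 0.955 of the whole range of the group, above the 95% critical value of Dixon's test for 4 samples. KO 5 measured 6.39 FPKM of *Mki67*, 1.91 of *Ccnb2*, 0.381 of *Ccna2*, 1.62 of *Plk1*, 1.21 of *Ndc80*, 1.48 of *Kif11* and 1.44 of *Kif23*. No WT library lay apart in this way for any of the 19. Of 38 groups looked at, chance gives about 1 in 20, and the genes share their libraries, so the 7 are not independent of each other.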

How the results depend on the processing

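Over all genes, 805 were higher and 817 lower in KO. These counts were 395 and 437 over all 9 libraries, 2377 and 2094 with a term for WT 1 and KO 1, 2373 and 2181 without WT 1, KO 1 and KO 5 (a choice made after seeing the data), and 327 to 2359 and 387 to 2062 with 1 library left out. Of the members 0 were higher and 0 lower. With a term for WT 1 and KO 1, and without WT 1, KO 1 and KO 5, 1 was higher and 2 lower. Over all 9 libraries, under median-ratio scaling and under the filter in all 8 libraries 1 was lower (*Kif20a*), and with 1 library left out 0 to 1 were higher and 0 to 2 lower. Of the other mitosis genes 2 were higher and 4 lower. These were 5 and 7 with the term, 7 and 6 without the 3 libraries and 2 and 1 over all 9. They were 2 to 4 and 1 to 7 with 1 left out. Of the S phase genes 1 was higher and 13 lower. These were 2 and 20 with the term, 2 and 17 without the 3 libraries and 1 and 3 over all 9. They were 0 to 1 and 3 to 17 with 1 left out. Of the G1 genes 2 were higher and 6 lower. These were 8 and 9 with the term, 8 and 12 without the 3 libraries and 1 and 2 over all 9. They were 1 and 4 under upper quartile scaling and 2 and 3 with no filter. With 1 left out they were 1 to 6 and 1 to 10. KO and WT libraries that share a number from 2 to 4 did not deviate together (correlations of 0.046, −0.112 and 0.005), so these numbers gave no sign of pairing. Number 1 was outside this check, since KO 1 was not in the comparison, and KO 1 and WT 1 did stand apart together. With the replicate block, in which KO 5 and WT 1 have no partner, 1891 genes were higher and 1777 lower. These counts were 1 and 3 for members and 5 and 8 for other mitosis genes. They were 2 and 16 for S phase genes and 7 and 9 for G1 genes. Of 335 values of 19 members under 18 settings, 303 kept their sign and their side of the threshold, 16 came to pass it and 16 changed sign. *Mki67* (0.12) was −0.27 over all 9 libraries, −0.37 with the term, and −0.13 without the 3 libraries and with the block. *Incenp* (0.04) was −0.051 and −0.072, and *Ndc80* (0.03) −0.0063 and −0.011, over all 9 and with the term. With 1 library left out the log2 fold change ranged from −0.37 to 0.39 for *Mki67*, −0.059 to 0.13 for *Incenp*, −0.027 to 0.19 for *Ndc80* and −0.21 to 0.11 for *Foxm1*. The cause of these changes was not tested. Members near 1 FPKM rest on few reads, such as the 4 of *Bub1* in KO 5.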
